A study of Rattus norvegicus with 5 samples.

Results

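The genes described here encode the proteins of the cytosolic ribosome, measured by RNA sequencing in laser-captured projection neurons of the rat striatum. Members were taken by name: a symbol in the authors' deposited comparison that starts with Rps or Rpl and a digit, or with Rpsa or Rplp, leaving out the 10 Rps6k kinase genes. This gave 64 of the 12054 genes in that table, 24 of the small subunit and 40 of the large subunit, and each was matched by Ensembl identifier to the raw counts of 32285 genes. Of 79 standard ribosomal protein names, 58 were found among the members, 23 of 32 for the small and 35 of 47 for the large subunit. The others, among them Rps6, Rps4x, Rpl10, Rpl22 and Rplp2, were not analysed here as members. The 62 distinct symbols include 4 related genes, namely the paralogs Rpl22l1, Rpl7l1 and Rpl36al and the pseudogene Rpl34-ps1. Rps2 and Rplp1 each stand on 2 identifiers.

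The cytosolic ribosome translates messenger RNA in every cell: its small subunit reads the message and its large subunit joins the amino acids. Most of its proteins are present in a single copy per ribosome, and their messenger RNAs begin with a stretch of pyrimidines (the terminal oligopyrimidine tract) through which the mTOR kinase pathway controls their translation. In neurons, ribosomes and the messages of their proteins are also found in dendrites and axons.

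Neurons were marked by a fluorescent tracer placed in their axons' target and carried back to the cell body. Striatomesencephalic neurons, the direct pathway to the midbrain, gave 2 libraries, and striatopallidal neurons, the indirect pathway to the pallidum, gave 3 libraries. All came from the striatum of Rattus norvegicus, and polyadenylated RNA was amplified with a single-cell kit before library preparation. The labels give no other treatment or genotype, and the sources used here give neither strain nor age, and no number of cells or animals.

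Totals ran from 20845178 to 22614680 counts in striatomesencephalic and from 22413168 to 24805062 counts in striatopallidal neurons. Levels are CPM, a gene's counts per 1000000 counts of its library, and 3 counts correspond to 0.121 to 0.144 CPM, a floor for counting error only. The 5 direct pathway markers summed to 4384 and 4929 CPM in striatomesencephalic neurons, against 2387, 1582 and 1569 CPM in striatopallidal neurons. The 4 indirect pathway markers summed to 1374 and 1710 CPM in striatomesencephalic neurons, against 5652, 5492 and 6029 CPM in striatopallidal neurons. RNA of other cells was present, with 8 oligodendrocyte markers at 5920 and 7363 CPM in striatomesencephalic and at 7115, 6659 and 5251 CPM in striatopallidal neurons, and its part in ribosomal protein levels was not tested. Of 6 markers of cortical glutamatergic neurons, 1 was matched, at 129 and 55.4 CPM in striatomesencephalic neurons and at 22.4, 13.7 and 20.3 CPM in striatopallidal neurons. It was higher in the striatomesencephalic group, as were Rps27 and Rplp1 under its main identifier, and its part in these was not tested either. In such pooled RNA, fewer cells of a type and less RNA per cell cannot be told apart. Striatopallidal replicate 2 stood apart: of 13811 genes tested, 41.9% were lowest there, and its Spearman correlation with the other libraries was 0.785 to 0.820, against 0.845 to 0.907 among those.

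Transcription start windows are shown for members whose levels are described below, because the pyrimidine tract is the feature these genes are known for. Each window is 30 bases of RefSeq's promoter table (build GRCr8), 5′ to 3′ on the transcript strand, with the annotated start at base 21 and the longest run of C or T in capitals.
Rps27 (chr2:177964597-177964626, minus strand): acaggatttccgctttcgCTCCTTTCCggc
Rplp1 (chr8:71290863-71290892, minus strand): tgcgcgcaggcgcatgtgaTCCTTTCCTCa
Rps3 (chr1:163195767-163195796, minus strand): TTCCTTTCCTTTCagcggcgcgcggcagca
Rps14 (chr18:56498240-56498269, plus strand): cccgccccttccgTCTCTCTCTTTCCggtg
Rpl14 (chr8:129163600-129163629, plus strand): cggcagggcgggCCCTCTCCCTTCTCgctg
Rpl36 (chr9:1533760-1533789, plus strand): TCTTCCTgtccggccgccatcggaaagctg
Rpl41 (chr7:1563488-1563517, minus strand): gaaggggcggCTCggaagtgacgacaccaa

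Of 62 member symbols, 47 matched an entry of the promoter table. A run of at least 10 pyrimidines stood in the window of 26 of these 47 genes (55.3%), against 5.28% of all 33469 promoters. The letters CTTTCC stood on the transcript strand in 16 of 47 windows (34%), against 1.36% of all promoters, and on the other strand in 1 of 47 (2.13%), against 1.33%. CCGGAAG, the core bound by ETS factors such as GABP, stood on either strand of the 300-base promoter in 15 of 47 genes (31.9%), against 8.75% of all, and in no member's window did it overlap CTTTCC. The run in Rplp1 and Rps27 spans the annotated start, while that in Rps3 and Rpl36 lies before it. Rpl41, which encodes the smallest protein of the ribosome, had no run longer than 3 bases in its window. These matches describe the letters only.

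The first comparison asked whether ribosomal protein genes differed between the neuron types. None of the 64 members passed an adjusted p of 0.05 in edgeR's quasi-likelihood test, which called 0 of 13811 genes (0%). An unadjusted p under 0.05 was reached by 4 of 64 members, where 6.07% of all genes tested reached it. All 4 had higher levels in the striatomesencephalic group, where 2.93% of all genes did, and 0 had lower ones, where 3.14% did. The 4 became 2 without striatomesencephalic replicate 1, without striatomesencephalic replicate 2 or without striatopallidal replicate 3. DESeq2 called 226 genes (1.64%) and no member, and limma voom called 0 genes. With these few and variable libraries, a missed threshold does not show that levels were alike.

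Log2 fold changes, striatomesencephalic minus striatopallidal throughout, had a median of 0.07 over the 64 members, against -0.06 over all genes tested. They were positive for 34 members (53.1%) and negative for 30, where 47.4% of all genes tested were positive. The median was 0.09 for the 24 small subunit genes, 14 of them positive, and 0.01 for the 40 large subunit genes, 20 of them positive. In either direction, 12 of 64 members (18.75%) exceeded 1, where 35.4% of all genes did. Among the translation lists described below, the share was 7.9% for initiation and 16.7% for elongation and termination factors. It was 6.7% for the genes outside the ribosome with terminal pyrimidine tracts and 21% for mTOR and S6 kinase signalling. For ribosome biogenesis it was 28.2%, and for mitochondrial ribosomal proteins 30.3%. Whether the level of the genes bears on these shares was not tested.

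**Figure D1:**
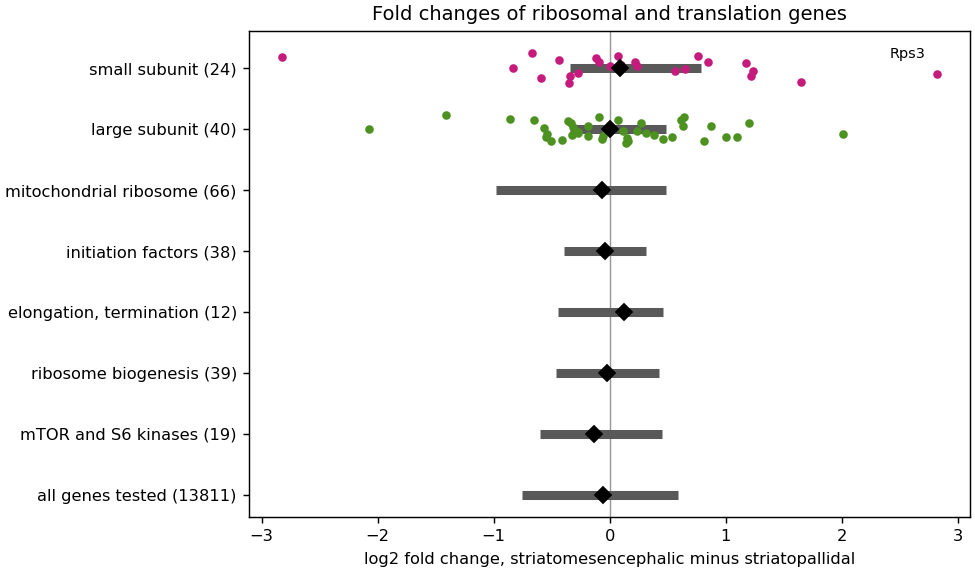
Log2 fold change (striatomesencephalic minus striatopallidal, x axis) for ribosomal and translation gene lists, with the number of genes tested in brackets. Points are single ribosomal protein genes, diamonds are list medians and grey bars span the 25th to the 75th percentile. The medians lie between -0.14 and 0.12, and the bar of all genes tested is wider than that of the large subunit.

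Among the small subunit genes, Rps27 and Rps3 had the smallest p-values. Rps27, a zinc-binding protein of the small subunit, stood at 111 and 136 CPM in striatomesencephalic neurons, against 48.4, 24.8 and 42.8 CPM in striatopallidal neurons. Both striatomesencephalic values lay above all 3 striatopallidal values. The log2 fold change was 1.65 ± 0.47 (SE), with an adjusted p of 0.779 in edgeR's quasi-likelihood test and 0.0834 in DESeq2.

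Rps3, a small subunit protein at the channel where messenger RNA enters and also known for a role in DNA repair, stood at 694 and 7412 CPM in striatomesencephalic neurons, against 666, 423 and 588 CPM in striatopallidal neurons. Striatomesencephalic replicate 2 alone was high, at 11.8 times the median of the other 4 libraries, and replicate 1 lay just above the highest striatopallidal library. With 167616 counts, Rps3 had the most counts of any gene in that library, and in the other libraries its rank by counts, which are not scaled for length, was between 201 and 418. The log2 fold change of 2.82 ± 0.81 (SE; adjusted p = 0.779, edgeR's quasi-likelihood test) was 0.25 without that library. In RefSeq's gene order, Arrb1, the next gene on one side of Rps3, stood at 216 and 163 CPM in striatomesencephalic and at 95.6, 96.7 and 139 CPM in striatopallidal neurons. Both striatomesencephalic values of Arrb1 lay above the striatopallidal ones, and replicate 1 was the higher. The gene next to Rps3 on the other side is not described here. Gdpd5, 2 genes away on the other side, stood at 12.8 and 13.2 CPM in striatomesencephalic and at 44.1, 26.6 and 45.2 CPM in striatopallidal neurons.

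In the large subunit, Rplp1 had the smallest p-value. It is an acidic protein of the stalk that recruits elongation factors. Its main identifier, ENSRNOG00000013874, had 520 and 560 CPM in striatomesencephalic neurons, against 257, 271 and 220 CPM in striatopallidal neurons. The groups were well apart and the spread within each was small, with a log2 fold change of 1.0 ± 0.37 (SE; adjusted p = 0.779, edgeR's quasi-likelihood test). The second identifier of Rplp1, ENSRNOG00000011955, had 6.28 and 5.53 CPM in striatomesencephalic and 6.92, 3.83 and 3.79 CPM in striatopallidal neurons, so the groups overlapped. Rplp0, the base of the same stalk, also overlapped, with 52.7 and 61.3 CPM in striatomesencephalic and 70.6, 119 and 27.9 CPM in striatopallidal neurons.

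Rpl4, which lines part of the exit tunnel, and Rpl36 had the smallest p-values among large subunit genes with negative values. Rpl4 had 164 and 197 CPM in striatomesencephalic and 326, 178 and 244 CPM in striatopallidal neurons, a log2 fold change of -0.51 ± 0.37 (SE). Rpl36 had 2.54 and 1.99 CPM in striatomesencephalic and 19.8, 0.968 and 9.82 CPM in striatopallidal neurons, so its groups overlapped through striatopallidal replicate 2.

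Both striatomesencephalic libraries exceeded all 3 striatopallidal libraries in CPM for 10 of 64 members, where 11.2% of all genes tested did. Among these were Rps3, Rps15, Rps20, Rps27, Rpl11, Rpl26, Rpl34, Rpl35a and Rplp1 under its main identifier. Both lay below in 1 member, where 9.91% of all genes did. With CPM scaled by TMM, a factor that lines up most genes between libraries, 9 members lay above, where 10.4% of all genes did, and 3 below, where 11.1% did, Rpl4 and Rpl13 among them. On that scale Rpl3 was among the 9, while Rpl34 and Rpl35a no longer separated the groups. Whether the members' shares differ from those of all genes was not tested.

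**Figure D2:**
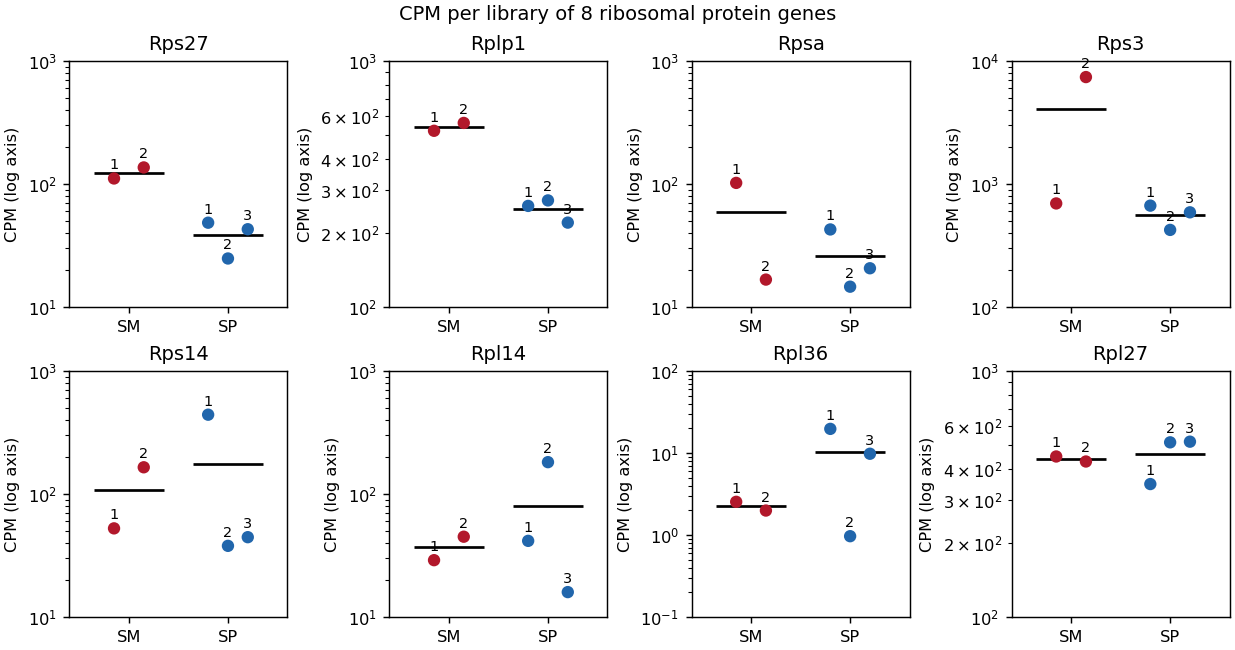
CPM per library (y axis, log scale) of 8 ribosomal protein genes in striatomesencephalic (SM, red) and striatopallidal (SP, blue) libraries. Points are libraries with their replicate number and lines are group means. Rps27 and Rplp1 (main identifier) separate the groups, Rpsa, Rps3, Rps14 and Rpl14 have 1 high library each, and Rpl27 is even.

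Values of other members of known function follow. Rpl5 and Rpl11 bind the p53 regulator Mdm2 together with a ribosomal RNA. Rpl5 had 225 and 202 CPM in striatomesencephalic and 167, 146 and 251 CPM in striatopallidal neurons, and Rpl11 had 42.2 and 49.7 CPM in striatomesencephalic neurons, against 36.7, 13.99 and 27.3 CPM in striatopallidal neurons. Rpl3, close to the site of peptide bond formation, had 530 and 717 CPM in striatomesencephalic and 553, 371 and 454 CPM in striatopallidal neurons. In CPM the groups overlapped for Rpl5 and Rpl3, while for Rpl11 they were apart by a narrow margin. Scaled by TMM, both striatomesencephalic values of Rpl3 lay above the others.

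Rps27a, made as a fusion with ubiquitin, had 33.3 and 27.6 CPM in striatomesencephalic neurons, against 31.8, 15.6 and 29.7 CPM in striatopallidal neurons. Rpl7 had 213 and 156 CPM in striatomesencephalic and 165, 144 and 104 CPM in striatopallidal neurons. Among the related genes, the paralog Rpl22l1 had 24.4 and 8.09 CPM in striatomesencephalic and 34.6, 13.7 and 27.4 CPM in striatopallidal neurons. For these genes too, the groups overlapped. Rpl7l1 had 8.11 and 24.0 CPM in striatomesencephalic and 15.2, 3.91 and 13.0 CPM in striatopallidal neurons. Rpl36al had 3.45 and 6.63 CPM in striatomesencephalic and 13.0, 3.99 and 10.8 CPM in striatopallidal neurons. The pseudogene Rpl34-ps1 had 30.8 and 16.2 CPM in striatomesencephalic and 11.8, 18.7 and 9.55 CPM in striatopallidal neurons. All 3 overlapped between the groups. Ribosomal protein genes have many near-identical processed copies in the genome, and the sources used here do not say how reads that match several places were counted, so levels of members with such copies are uncertain.

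The summed level asked how much of each library these genes took. The 64 members summed to 5573 and 12499 CPM in striatomesencephalic neurons, against 5517, 4469 and 4636 CPM in striatopallidal neurons. Striatomesencephalic replicate 2 was far above the others, and Rps3 made up 59.3% of its member counts, against 9.46% to 12.7% in the other 4 libraries. Without Rps3 the sums were 4879 and 5088 CPM in striatomesencephalic neurons, against 4850, 4046 and 4048 CPM in striatopallidal neurons. The striatomesencephalic mean was then 4983 ± 148 CPM (SD, n = 2), against a striatopallidal mean of 4315 ± 464 CPM (SD, n = 3), and the groups were only just apart. Scaled by TMM, the same sums overlapped, at 4664 and 4993 CPM in striatomesencephalic and 4258, 5226 and 3804 CPM in striatopallidal neurons.

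**Figure D3:**
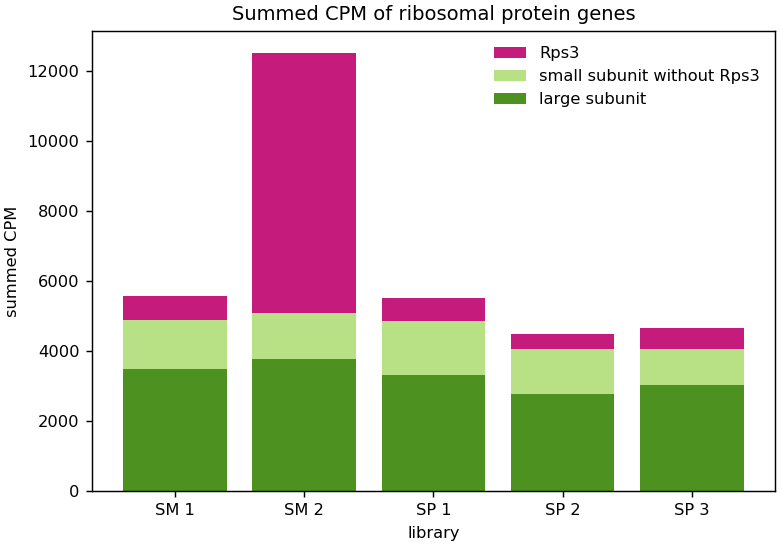
Summed CPM of the 64 ribosomal protein genes per library (stacked bars; SM striatomesencephalic, SP striatopallidal). Rps3 alone adds 7412 CPM in striatomesencephalic replicate 2, and the large subunit takes between 2758 and 3763 CPM in all 5 libraries.

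Large subunit genes summed to 3483 and 3763 CPM in striatomesencephalic neurons, against 3319, 2758 and 3016 CPM in striatopallidal neurons. The groups did not overlap on library totals, whereas scaled by TMM they did, at 3330 and 3693 CPM in striatomesencephalic neurons, against 2914, 3562 and 2834 CPM in striatopallidal neurons. Small subunit genes without Rps3 summed to 1395 and 1325 CPM in striatomesencephalic and 1531, 1288 and 1032 CPM in striatopallidal neurons, and overlapped.

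The ratio of the small to the large subunit sum, which needs no scaling between libraries, was 0.60 and 2.32 in striatomesencephalic libraries, against 0.662, 0.620 and 0.537 in striatopallidal libraries. Without Rps3 it was 0.401 and 0.352 in striatomesencephalic and 0.461, 0.467 and 0.342 in striatopallidal libraries. Apart from the Rps3 value, the ratio was within the spread of the libraries. As a score over members, it was given no test.

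Single libraries with a value far from the rest were counted next. A spike was a CPM at least 4 times the median of the other 4 libraries with at least 10 counts, and a dip that median divided by at least 4, where the median itself amounts to at least 10 counts. Of the 64 members, 9 had a spike, where 28.4% of all genes tested had one, and 8 had a dip, where 37.4% did. Ribosomal protein genes thus had spikes and dips at lower shares than genes at large, a difference that was not tested. Members had to be listed in the authors' deposited comparison of 12054 genes, while the other shares are over all 13811 genes tested. Members had a median level of 33.5 CPM and all genes tested 19.3 CPM, and whether this difference in level bears on the shares was not tested. Without striatomesencephalic replicate 1, 5 members had a spike, and without striatopallidal replicate 2, 1 had a dip.

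Spikes fell on different genes in different libraries. Besides Rps3, Rps14 stood apart in striatopallidal replicate 1. Rps14, whose loss of 1 copy underlies the anaemia of a human myelodysplastic syndrome, had 52.6 and 165 CPM in striatomesencephalic neurons, against 442, 37.9 and 44.6 CPM in striatopallidal neurons. The high library was 9.11 times the median of the others, and without it the log2 fold change was 1.22 in place of -0.59. Rpl14 had 29.0 and 45.0 CPM in striatomesencephalic neurons, against 41.6, 182 and 15.9 CPM in striatopallidal neurons, with replicate 2 high where many other members were low.

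Striatomesencephalic replicate 1 was high for Rpsa and Rps19, among others. Rpsa, also known as the laminin receptor precursor, had 102 and 16.7 CPM in striatomesencephalic neurons, against 42.7, 14.6 and 20.6 CPM in striatopallidal neurons. Rps19, the gene first linked to human Diamond-Blackfan anaemia, had 213 and 30 counts in striatomesencephalic and 71, 57 and 37 counts in striatopallidal neurons. Rpl39, a protein of the exit tunnel, was high in striatomesencephalic replicate 2, with 36 and 422 counts in striatomesencephalic neurons, against 154, 38 and 127 counts in striatopallidal neurons. For Rpsa, Rps19 and Rpl39, the other striatomesencephalic library lay within or below the range of the striatopallidal ones in CPM.

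Rpl36 met the definition in striatopallidal replicates 1 and 3, at 8.72 and 4.33 times the median of the others. The second identifier of Rps2, ENSRNOG00000059428, had 11 and 3 counts in striatomesencephalic neurons, against 8, 125 and 1 counts in striatopallidal neurons. Its spike in striatopallidal replicate 2, at 21.5 times the median of the others, was the largest ratio among members. That ratio rests on few reads in the other libraries. The main identifier of Rps2, ENSRNOG00000014179, met neither definition.

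All 8 dips lay in striatopallidal replicate 2, among them those in Rps10, Rps24, Rps25, Rpl12, Rpl30, Rpl32 and Rpl36. Rps24 had 32.9 and 6.94 CPM in striatomesencephalic neurons, against 18.2, 3.06 and 20.03 CPM in striatopallidal neurons. Rps10 had 82 and 33 counts in striatomesencephalic and 79, 11 and 26 counts in striatopallidal neurons. In the same library 12.5% of members had a dip, against 25% of all genes tested. There, 33 of 64 members (51.6%) were at their lowest, where 41.9% of all genes were. Members stood at a median of -0.58 there on the log2(CPM + 1) scale relative to the median of the other 4 libraries, and all genes tested at -0.47. Scaled by TMM, 3 of 64 members had a dip in any library, while 4672 of all 13811 genes tested had one, against 5169 on library totals.

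**Figure D4:**
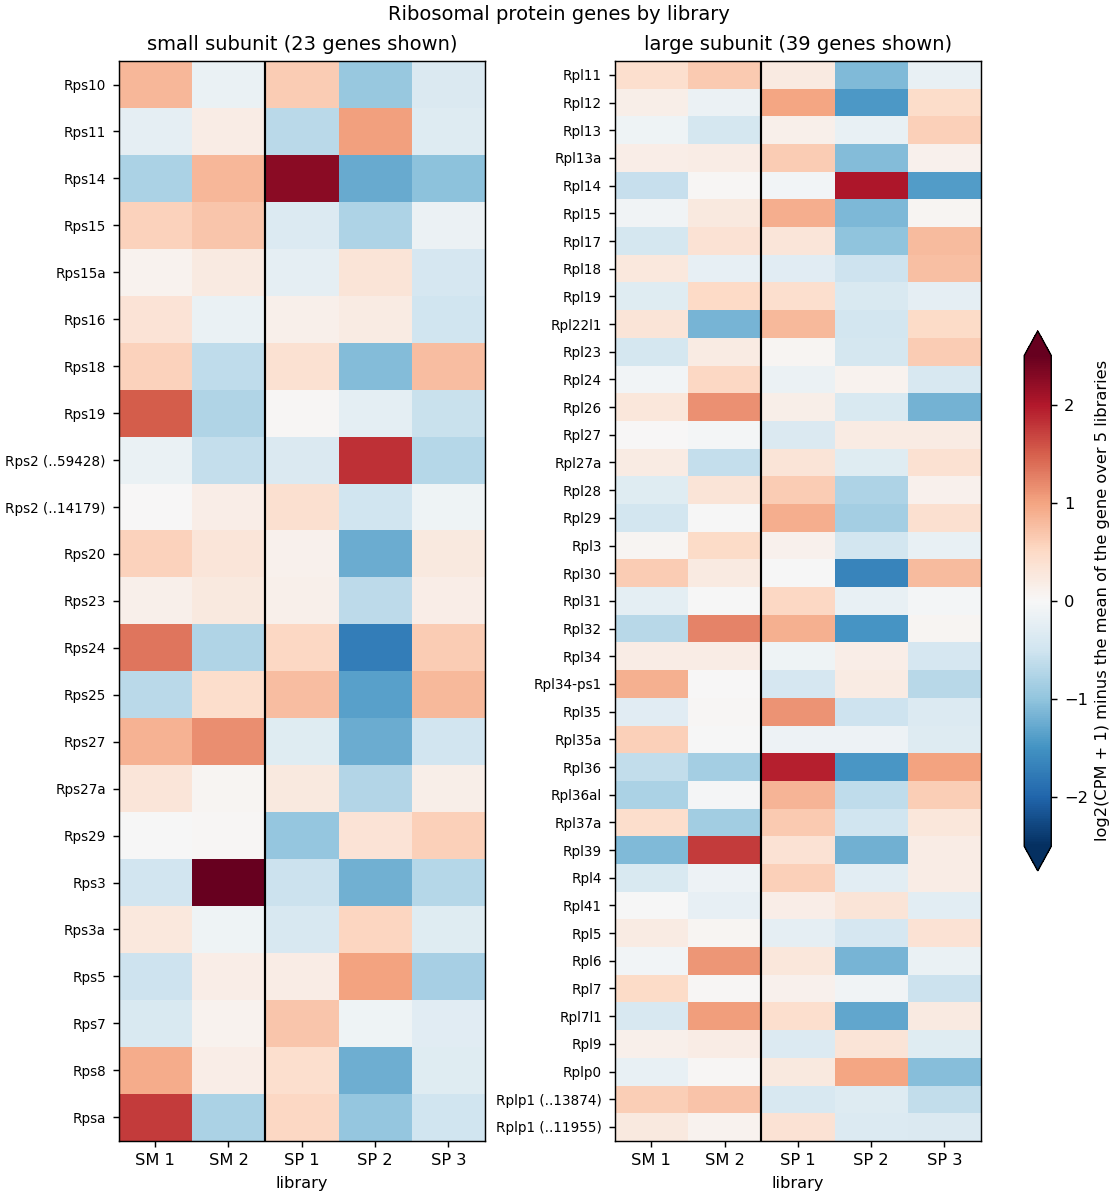
Log2(CPM + 1) of 62 of the 64 ribosomal protein genes minus each gene's mean over the 5 libraries (colour; red above, blue below the mean), with 23 small subunit genes left and 39 large subunit genes right. Columns are striatomesencephalic (SM) and striatopallidal (SP) libraries. Striatopallidal replicate 2 is blue for many genes, and the darkest red cell is Rps3 in striatomesencephalic replicate 2.

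Other members varied less across the 5 libraries. For 41 of 64 members the highest library was less than 4 times the lowest, a share that was not computed over all genes. Some of these, such as Rplp1 under its main identifier, still separated the groups. Rpl27 had the smallest SD of log2(CPM + 1), 0.23, with 450 and 429 CPM in striatomesencephalic and 347, 513 and 517 CPM in striatopallidal neurons. Rpl41 followed at 0.25, with 109 and 94.3 CPM in striatomesencephalic and 123, 138 and 90.8 CPM in striatopallidal neurons. The median SD over the 5 libraries was 0.65 for members and 0.78 for all genes tested. It was 0.71 for the small and 0.63 for the large subunit. Within the striatomesencephalic libraries the median SD was 0.31 for members and 0.50 for all genes tested. Within the striatopallidal libraries these were close, at 0.67 and 0.70. Over the libraries of both groups without striatopallidal replicate 2, the median SD was 0.49 for members and 0.64 for all genes tested. Whether the level of members bears on these SDs was not tested.

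Over members, the Spearman correlation of CPM between the striatomesencephalic libraries was 0.878, between striatopallidal libraries 0.839 to 0.893, and across groups 0.836 to 0.916 (n = 64 genes, which share transcript length and counting between libraries). Pairs within a group were thus no more alike than pairs across the groups. No coding lengths were used, so members were not ranked against each other by level.

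The last comparison set other genes of translation beside the ribosomal proteins, from lists of their factors. No gene of these lists passed in edgeR's quasi-likelihood test. The median log2 fold change of the 38 initiation factors tested was -0.04, and that of the 12 elongation and termination factors 0.12. Neither list held a gene with an unadjusted p under 0.05. Eif3i and Eif3k, subunits of initiation factor eIF3, had 1.51 ± 0.80 and 1.44 ± 0.84 (SE), with adjusted p-values of 0.780 and 0.799 in edgeR's quasi-likelihood test. The elongation factor subunits Eef1g and Eef1b2 had opposite signs, 0.96 ± 0.46 and -1.09 ± 0.56 (SE). Both also belong to the 15 tested genes outside the ribosome with terminal pyrimidine tracts, whose median was 0.03, as does Hnrnpa1 at 0.89 ± 0.44 (SE).

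Among 19 genes of mTOR and S6 kinase signalling the median was -0.14, and 1 gene had an unadjusted p under 0.05. This was Rheb, the GTPase that activates mTOR, at 376 and 273 CPM in striatomesencephalic neurons, against 144, 81.5 and 88.9 CPM in striatopallidal neurons. Both striatomesencephalic values lay well above the striatopallidal ones, with a log2 fold change of 1.58 ± 0.39 (SE; adjusted p = 0.779, edgeR's quasi-likelihood test). Rps6kb1, a kinase of the ribosomal protein Rps6, had 85.4 and 60.1 CPM in striatomesencephalic and 94.1, 283 and 145 CPM in striatopallidal neurons. Its log2 fold change of -1.47 ± 0.70 (SE) was -0.65 without striatopallidal replicate 2.

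The 39 genes of ribosome biogenesis had a median of -0.02. Rrs1, a factor of large subunit assembly, had 55 and 2978 counts in striatomesencephalic and 80, 17 and 35 counts in striatopallidal neurons, so it was high in striatomesencephalic replicate 2, as was Rps3. Gar1, a protein of nucleolar particles that modify ribosomal RNA, had 123 and 49 counts in striatomesencephalic neurons, against 595, 2486 and 457 counts in striatopallidal neurons. Their log2 fold changes were 5.21 ± 1.48 and -3.87 ± 1.21 (SE). Neither passed in edgeR's quasi-likelihood test, and DESeq2 called both, with adjusted p-values of 0.00655 and 0.0156. Without striatomesencephalic replicate 2, the log2 fold change of Rrs1 was 0.52.

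The 66 mitochondrial ribosomal protein genes had a median of -0.06 and summed to 2331 and 2667 CPM in striatomesencephalic neurons, against 2376, 2839 and 2673 CPM in striatopallidal neurons, so the groups overlapped. Mrpl38 rested on 1 library, with 161 and 6948 counts in striatomesencephalic and 271, 218 and 202 counts in striatopallidal neurons. Its log2 fold change was 3.96 ± 1.24 (SE), called by DESeq2 (adjusted p = 0.0412) and not by edgeR, and -0.42 without striatomesencephalic replicate 2. Mrps27 had 28.8 and 31.5 CPM in striatomesencephalic neurons, against 82.4, 62.2 and 90.2 CPM in striatopallidal neurons, a log2 fold change of -1.44 ± 0.51 (SE; adjusted p = 0.779, edgeR's quasi-likelihood test). Gnb2l1, the small subunit scaffold also called Rack1, is a ribosomal protein by another name. Its log2 fold change was -0.35 ± 0.77 (SE), and it became positive when either library numbered 2 was left out.

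The authors' deposited table, whose fold changes run striatopallidal minus striatomesencephalic, listed no gene with an adjusted p under 0.05 (0% of 12054). Of the members, 3 had in the authors' deposited table a p under 0.05, where 4.53% of all its genes did. Among these were Rplp1 at -1.11 under its main identifier and Rps27 at -1.78 in the authors' deposited table, both higher in striatomesencephalic libraries. Rps3 stood at -2.15 with a p of 0.0659 in the authors' deposited table. For 8 members the direction in the authors' deposited table was the opposite of that in the count fit, as for Rps14, which stood at -0.18 there with a p of 0.874. The same count was not made over all genes.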

How the data were processed

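Raw read counts per Ensembl gene were deposited by the authors, 1 table per library. TopHat2, HTSeq, edgeR and limma with build Rnor_6.0 are named, per the submitters' processing notes, without versions or roles. The authors' deposited comparison, per the file headers, holds log2 fold changes, p-values and scores (moderated t and log odds); its gene symbols were used. Its sign, striatopallidal minus striatomesencephalic, was found by comparison with the counts. The main test of these counts was edgeR 4.0.16 under R 4.3.3 (with filterByExpr, TMM, glmQLFit, glmQLFTest; Benjamini-Hochberg over 13811 genes, threshold 0.05); DESeq2 1.42.0 and limma 3.58.1 (voom) were alternatives. The fit was run on simulated data, and its fold changes were checked only at a spread between libraries far below that of these data. That check does not show how many real differences the fit would call here. All 64 members passed the filter. CPM uses library totals. The SE given with log2 fold changes was not estimated directly. It is the absolute log2 fold change divided by the square root of the F statistic of edgeR's quasi-likelihood test. It does not show whether a single library carries the value.

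Members and lists were chosen with earlier results of these data known. Genes named were the 3 smallest p-values per direction, the 10 members with the largest spike or dip, 22 fixed names where present, and the 2 smallest p-values of each translation list; some other members were named after their values were seen. Single values of some genes are not reported here, though counts and sums include them. The planned ranking by coding length was not made, as no protein table was used. Libraries of a group may not come from separate animals, so p-values measure the spread between these libraries, which may be technical. Any pair of libraries differed beyond sampling noise (chi-square of 174 to 592 per degree of freedom), so none was counted as the same library deposited again. This does not show that they come from separate samples.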

Additional observations from a re-analysis of the deposited data

How the results depend on the processing

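No member passed under any of the 12 other fits, and the median log2 fold change over members moved by less than the spread between replicates in each of them. That spread, an SD of 0.28, is larger than the median itself, 0.07, so this is a weak check. Without striatomesencephalic replicate 2 the median was -0.01. The small and the large subunit median also changed sign when a striatomesencephalic library was left out. DESeq2 called 226 genes in place of 0. The log2 ratio of summed CPM (striatomesencephalic over striatopallidal) was 0.89 for all members, 1.55 for the small subunit and 1.27 for the small to large ratio. Without Rps3 these were 0.21, 0.083 and -0.17, without Rps3 on TMM scaling 0.12, -0.0098 and -0.17, and without all members with a spike 0.22, 0.14 and -0.12. Leaving out 1 library at a time gave 0.19 to 1.36, 0.18 to 2.25 and -0.016 to 1.94, the lowest each time without striatomesencephalic replicate 2. With a 2-fold limit 28 of 64 members had a spike and 32 a dip, where 8498 and 9122 of 13811 genes did. With an 8-fold limit 4 and 0 members did, where 1912 and 3200 genes did. Dips numbered 3 on TMM scaling, and members with both striatomesencephalic libraries below the others 3 in place of 1, a check added after the data were seen. Without 1 library at a time, 5 to 11 members had a spike, 5 without striatomesencephalic replicate 1, and 1 to 9 a dip, 1 without striatopallidal replicate 2.

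Some single genes changed sign when 1 library was left out. Their log2 fold changes ranged from -1.66 to 1.22 for Rps14, -0.92 to 1.28 for Rps24, -0.62 to 1.96 for Rpsa and -0.086 to 1.63 for Rps10. They ranged from -0.86 to 2.04 for Rps19, -1.92 to 0.47 for Rpl14, -1.52 to 0.30 for Gnb2l1 and -0.42 to 4.93 for Mrpl38. Rps27 kept 1.48 to 1.81 and Rplp1, under its main identifier, 0.86 to 1.27. With the replicate number as a block, 0 genes and 0 members were called, 2 members had an unadjusted p under 0.05 in place of 4, and the median over members was 0.10. Same-numbered libraries did not deviate together (correlations -0.03 and -0.04). With only 2 striatomesencephalic libraries, these values cannot exclude pairing. The main fit did not take the numbers as pairs.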
